A study of Homo sapiens with 8 samples.

Results

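The genes examined were 35 genes of autophagy and of the lysosome, taken by name from the probes of the arrays and grouped by the step of autophagy in which they act. All 35 were on the array, with 55 of its 50599 probes, and they are 35 of 36337 gene names there. RNA came from FT293 cells, which are Flp-In T-REx HEK293 cells, a human embryonic kidney line with a single recombination site at which a gene of interest is integrated. Each of the 4 lines carried a tetracycline-inducible construct at that site: GFP alone in the GFP line, GFP-HuR in the HuR line, GFP-TIA1 in the TIA1 line and GFP-TIAR in the TIAR line. Cells were taken on day 3 of tetracycline, and 2 replicates of each line were hybridised, 1 to an array. The sample titles name them only as replicates. The lines share the host cell, the integration site and the tetracycline, so the GFP line controls for induction and for the tag, whereas the HuR line carries another RNA-binding protein. TIA1 and TIAR are related RNA-binding proteins that act in splicing and in translational repression, and HuR, encoded by ELAVL1, binds U-rich and AU-rich RNA and often stabilises it.

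Autophagy delivers cytoplasm to the lysosome for breakdown. A kinase complex around ULK1 starts the process, a lipid kinase complex around PIK3C3 and BECN1 marks the membrane, and ATG9A vesicles and WIPI proteins bring lipid and effectors to it. Ubiquitin-like conjugation enzymes then attach proteins of the ATG8 family, among them LC3, to the growing membrane, where receptors such as SQSTM1 tether cargo. The closed autophagosome fuses with a lysosome, whose membrane holds LAMP1 and LAMP2 and whose lumen holds cathepsins, and the transcription factor TFEB drives many genes of both organelles. The arrays measure RNA and not the flux of material through this route.

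Signal is given on the log2 scale relative to the 75th percentile of each array, so that 0 is a bright probe and negative values lie below it. Of the 8 arrays, GFP 1 stood apart: 86.0% of its probes were well above background, against 53.2 to 58.5% on the other 7, and its mean local background was 83.2 against 35.7 to 41.5. Its 34 member genes detected on every array were lower than on GFP 2 in 31 cases, by a median of 0.25, and the median size of that difference was 0.26, against 0.03 between the HuR arrays, 0.12 between the TIA1 arrays and 0.09 between the TIAR arrays. All arrays lay on 1 slide, so position on the slide and line cannot be told apart. TIAL1, which encodes TIAR, read 4.89 and 5.01 in the TIAR line and 2.48 and 2.53 in the HuR line. The brighter TIA1 probe averaged -0.95 in the TIA1 line against 0.03 in HuR, and the ELAVL1 probe 0.39 in HuR against 1.02 in GFP, so neither was highest in the line named for it; whether these probes lie within the integrated constructs is not known here. Of 7 genes typical of HEK293 cells, 6 or 7 were well above background on every array. Markers of leukocytes, endothelium, fibroblasts and hepatocytes, 11 genes, had a summed linear level of 5.73 on GFP 1, 0.816 on GFP 2, 1.34 to 1.39 in HuR, 2.08 to 2.13 in TIA1 and 1.96 to 2.1 in TIAR, against 106 to 172 for the HEK293 genes; between 6 and 10 of the 11 were well above background on an array. These markers moved with the lines, and their part in the differences below was not tested.

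Against the HuR line, more autophagy and lysosome genes rose than fell in both TIA lines, by small amounts, as was also so among all genes tested. The question here was how the RNA of the TIA lines differed from that of the line with HuR. A gene counted as changed at an adjusted p under 0.05, from limma on the 4 arrays of a comparison with Benjamini-Hochberg adjustment over all probes tested, and as called where the change was also at least 2-fold. One probe stood for each gene, the one with the highest mean signal. Of the 35 genes, 34 were tested in every comparison. MAP1LC3A, a neuronally enriched LC3 paralogue, was not, since it was well above background on only 1 GFP and 1 HuR array. In TIA1 versus HuR 11 of 34 genes rose, or 32.4% against 24.5% of the 21219 genes tested, and 4 fell, or 11.8% against 17%. In TIAR versus HuR 10 rose, or 29.4% against 18.9% of 21500 genes, and 5 fell, or 14.7% against 11.9%. The median difference of the 34 genes was 0.26 in both comparisons, against 0.09 and 0.07 for all genes.

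Few of these changes reached 2-fold. In TIA1 versus HuR limma called 0 members higher, although 8.54% of all genes were, and 1 lower, ATG10, or 2.94% against 4.67%. Without the adjustment 20 members had a p under 0.05 in that comparison, and the methods' paired t-test, named there for 2 groups in general and not for the arrays, called 0 after adjustment. In TIAR versus HuR 1 member was called higher, MAP1LC3B, or 2.94% against 7.47%, and 2 lower, ATG10 and UVRAG, or 5.88% against 2.75%. The 2 comparisons share the HuR arrays, so their values are given side by side and not as support for each other. The counts rest on the close pair of HuR arrays: without HuR 1 or without HuR 2, 2 members passed the adjusted p in TIA1 versus HuR, ATG10 and LAMP1, and 0 in TIAR versus HuR, whereas without a TIA array 10 to 12 did. With 2 arrays a line the p-values measure the spread between these arrays only.

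**Figure D1:**
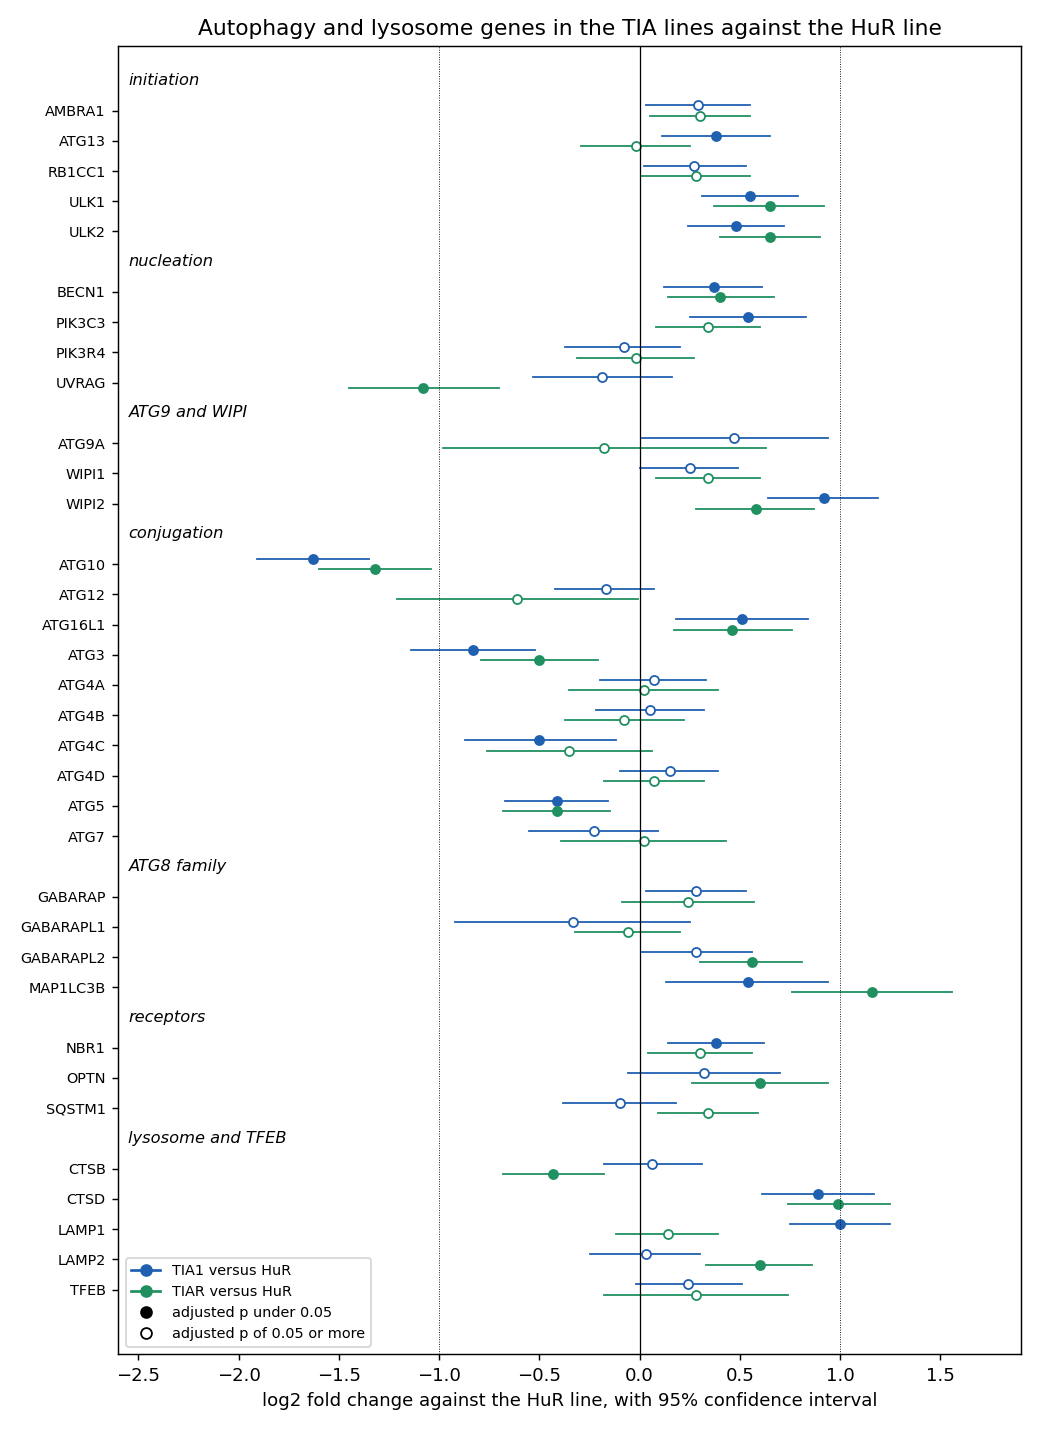
Points are log2 fold changes of 34 genes against the HuR line, blue for TIA1 and green for TIAR, with lines for the 95% confidence interval of the limma fit on 4 arrays and dotted lines at 2-fold. Filled points passed an adjusted p of 0.05; ATG10 lies below -1 in both lines, UVRAG below -1 and MAP1LC3B above 1 in TIAR alone, and most other points lie between 0 and 1.

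**Figure D2:**
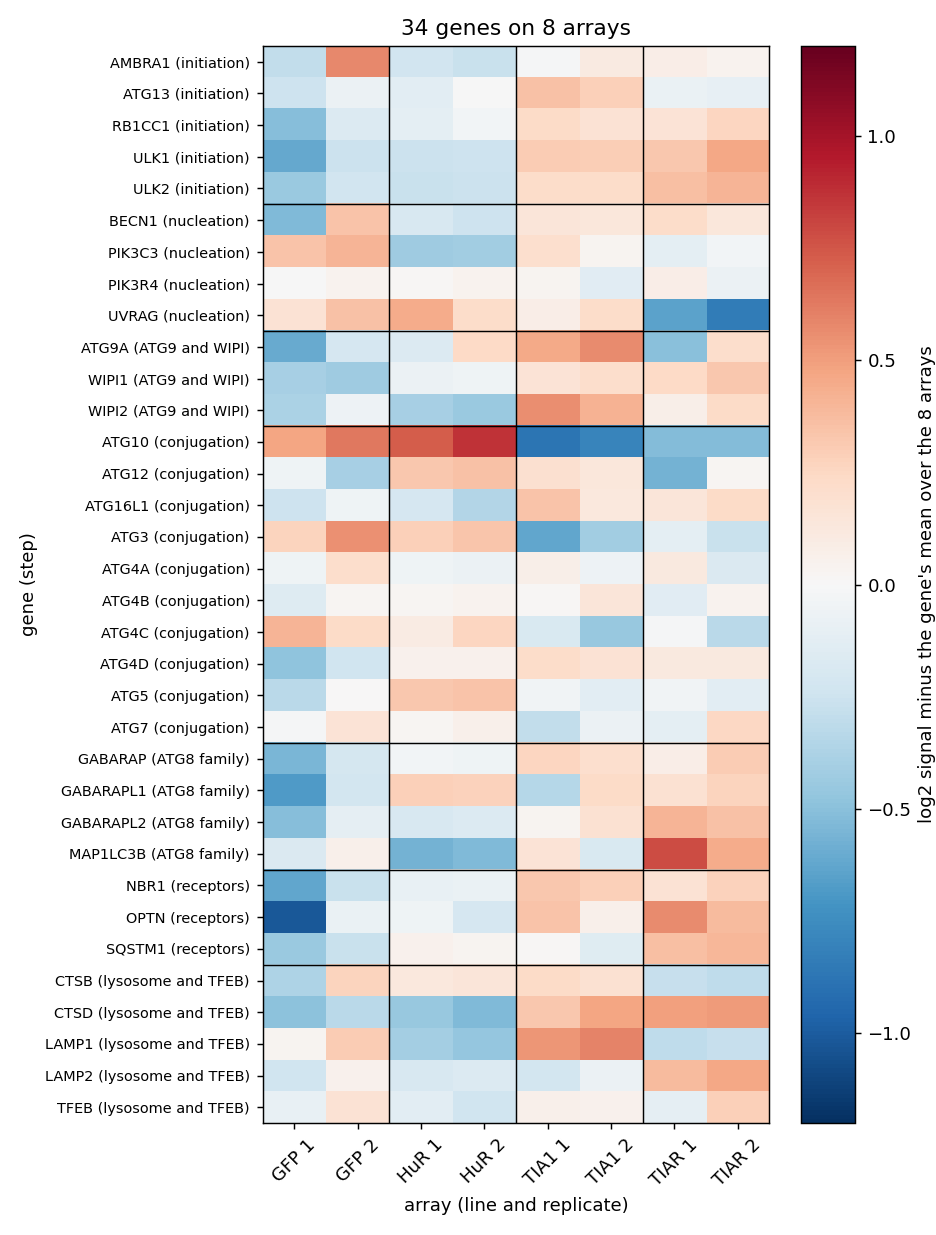
Colours give the log2 signal of 34 genes on each of the 8 arrays, minus the gene's mean over the arrays, with red above and blue below that mean. ULK1, ULK2, CTSD and NBR1 are red on all 4 TIA1 and TIAR arrays and blue on all GFP and HuR arrays, ATG10 and ATG3 are the reverse, and GFP 1 is paler or bluer than GFP 2 in most rows.

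Of the 5 initiation genes, 3 rose in TIA1 versus HuR and 2 in TIAR versus HuR, beside 24.5% and 18.9% of all genes, and none fell; the 5 differences ran from 0.27 to 0.55 in TIA1 and from -0.02 to 0.65 in TIAR. ULK1, the kinase that starts autophagy, read 1.21 and 1.57 in GFP, 1.57 and 1.58 in HuR, 2.13 and 2.12 in TIA1, and 2.15 and 2.29 in TIAR. The 4 TIA arrays lay above all others, and ULK1 rose by 0.55 ± 0.09 (SE, n = 2 arrays a line) in TIA1 and by 0.65 ± 0.10 in TIAR, with adjusted p of 0.013 and 0.018 from limma. ULK2, a kinase related to it, read -0.49 and -0.28 in GFP, -0.32 and -0.31 in HuR, 0.17 on both TIA1 arrays, and 0.31 and 0.36 in TIAR. Its groups did not overlap either on this probe, with rises of 0.48 ± 0.09 (adjusted p = 0.018) and 0.65 ± 0.09 (adjusted p = 0.015 by limma). The other ULK2 probes, dimmer ones, did not pass. They differed from HuR by -0.21 and 0.37 in TIA1 and by 0.10 and 0.82 in TIAR, so the sign in TIA1 depended on the probe. ATG13, the adaptor of the kinase complex, rose in TIA1 on both of its probes, by 0.38 (adjusted p = 0.043) and 0.50 (adjusted p = 0.018), and differed from HuR by -0.02 and 0.17 in TIAR. RB1CC1, the scaffold known as FIP200, had differences of 0.27 and 0.28, and AMBRA1, which links ULK1 to the lipid kinase, of 0.29 and 0.30; neither passed, with adjusted p from 0.076 to 0.099.

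Of the 4 nucleation genes, BECN1 rose in both TIA lines and UVRAG fell in TIAR. UVRAG, which binds BECN1 and acts in the maturation of autophagosomes and endosomes, read -2.6 and -2.43 in GFP, -2.33 and -2.56 in HuR, -2.7 and -2.56 in TIA1, and -3.42 and -3.62 in TIAR. Only the TIAR arrays stood apart, below the other 6. UVRAG fell in TIAR versus HuR by 1.08 on the log2 scale, 2.11-fold, with an adjusted p of 0.012, and differed by -0.19 in TIA1 (adjusted p = 0.30). Without HuR 1 or HuR 2 the fall did not pass (adjusted p = 0.082 and 0.072). The first 30 of the 60 bases of its only probe, at chr11:75855200-75855259 of hg19 on the plus strand, are shown because this gene was called in 1 TIA line and not in the other, and the probe reads near the far end of a long transcript, from position 5083.
UVRAG probe: gcatgtgaaactgatctgttggtaactgga

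BECN1, the core scaffold of the lipid kinase complex, read 2.01 and 2.88 in GFP, 2.35 and 2.29 in HuR, 2.69 and 2.68 in TIA1, and 2.76 and 2.68 in TIAR. It rose against HuR by 0.37 ± 0.09 (adjusted p = 0.038) and by 0.40 ± 0.10 (adjusted p = 0.044), but the GFP arrays spanned all other values. PIK3C3, the lipid kinase itself, read 1.74 and 1.8 in GFP, 0.97 and 0.98 in HuR, 1.6 and 1.43 in TIA1, and 1.28 and 1.36 in TIAR. Here the GFP line was the highest and HuR the lowest, so the rise of 0.54 in TIA1 versus HuR (adjusted p = 0.022) went with a difference of -0.25 from GFP, and in TIAR the difference from HuR was 0.34 (adjusted p = 0.061). PIK3R4, the regulatory subunit, differed from HuR by -0.08 and -0.02, within the spread of the arrays.

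Of the 3 genes for membrane supply and recruitment, WIPI2 rose in both lines. WIPI2, which binds the marked membrane and recruits ATG16L1, read 2.81 and 3.13 in GFP, 2.79 and 2.74 in HuR, 3.75 and 3.61 in TIA1, and 3.26 and 3.42 in TIAR. All TIA arrays lay above all others, and the rise against HuR was 0.92 ± 0.10 in TIA1 (adjusted p = 0.006) and 0.58 ± 0.11 in TIAR (adjusted p = 0.026). Its second probe rose in TIA1 by 0.36 (adjusted p = 0.049) and differed by 0.17 in TIAR. WIPI1, its relative, read -0.53 and -0.56 in GFP, -0.2 and -0.18 in HuR, 0.03 and 0.08 in TIA1, and 0.11 and 0.19 in TIAR, an order without overlap between the lines, but its differences of 0.25 and 0.34 from HuR did not pass (adjusted p = 0.097 and 0.064). ATG9A is the transmembrane protein of the vesicles that seed the membrane. It read 0.18 and 0.59 in GFP, 0.62 and 1.03 in HuR, 1.24 and 1.36 in TIA1, and 0.29 and 1 in TIAR. Neither difference from HuR passed (adjusted p = 0.089 and 0.68 by limma). Its brighter probe differed by 0.47 in TIA1 and -0.18 in TIAR, and its dimmer one by -0.23 and -0.10, also not past the test.

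Of the 10 conjugation genes, 4 fell and 1 rose in TIA1 versus HuR, beside 17% and 24.5% of all genes, and 3 fell and 1 rose in TIAR versus HuR, beside 11.9% and 18.9%. ATG5, counted among the fallen, had a second probe of the opposite sign in TIA1, given below. ATG10 had the largest change of all 34 genes. ATG10 is the enzyme that passes ATG12 on to ATG5. Its brighter probe read -2.15 and -1.99 in GFP, -1.9 and -1.76 in HuR, -3.5 and -3.42 in TIA1, and -3.15 on both TIAR arrays. The 4 TIA arrays lay 1.00 below the lowest of the other 4. ATG10 fell against HuR by 1.63 on the log2 scale in TIA1, 3.09-fold (SE 0.10, adjusted p = 0.0026), and by 1.32 in TIAR, 2.49-fold (SE 0.10, adjusted p = 0.0056). Without HuR 1 or HuR 2 the fall in TIAR did not pass (adjusted p = 0.053 and 0.061), whereas that in TIA1 did (0.028 and 0.031). Its other probe, which the array's annotation also gives for both ATG10 transcripts, read -4.76 and -4.43 in HuR, -5.82 and -6.55 in TIA1, and -5.84 and -5.81 in TIAR. On the TIA1 arrays it was not well above background, so that the fall there was at least 1.83-fold (adjusted p = 0.017), a bound set by the lowest signal well above background; in TIAR it was well above background on 1 of 2 arrays, so that no exact fall is given. The probes lie at chr5:81354316-81354375 and chr5:81550614-81550673 of hg19 on the plus strand and start at transcript positions 404 and 1823; the first 30 bases of each are shown to place the separate stretches of the transcript that they read.
ATG10 brighter probe: ctgttctgatggctacatgtgcaaaataca
ATG10 dimmer probe: ggtgttataaacatgacctatcttaagtga

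ATG3, the enzyme that attaches ATG8 proteins to lipid, also fell in both lines. It read 1.99 and 2.27 in GFP, 2.01 and 2.06 in HuR, 1.1 and 1.31 in TIA1, and 1.61 and 1.46 in TIAR, so that again the TIA arrays lay below all others. The change was -0.83 ± 0.11 in TIA1 (adjusted p = 0.0094) and -0.50 ± 0.11 in TIAR (adjusted p = 0.034). ATG16L1, which sets the site of conjugation together with ATG12 and ATG5, was the member that rose, and read 1.41 and 1.61 in GFP, 1.46 and 1.31 in HuR, 2 and 1.79 in TIA1, and 1.8 and 1.89 in TIAR. Its differences of 0.51 and 0.46 had adjusted p of 0.035 and 0.041. The dimmer probe of ATG16L1 differed by 0.25 and 0.35 and did not pass (adjusted p = 0.17 and 0.062 by limma). ATG5, the acceptor of ATG12, read 0.64 and 0.96 in GFP, 1.28 and 1.3 in HuR, and 0.92 and 0.83 in each of the TIA lines, a change of -0.41 in both (adjusted p = 0.031 and 0.042) in which HuR and not the TIA lines lay apart from GFP. ATG4C, a protease that trims and recycles ATG8 proteins, differed from HuR by -0.50 in TIA1, just inside the threshold at an adjusted p of 0.04996, and by -0.35 in TIAR. Its other probes, dimmer ones, did not pass in TIA1 (adjusted p = 0.082 and 0.15 by limma). ATG4A, ATG4B and ATG4D, relatives of ATG4C, had differences from -0.08 to 0.15, none past the test. ATG7, the activating enzyme, and ATG12, the ubiquitin-like protein, did not pass on their brighter probes, with -0.23 and -0.17 in TIA1 and 0.02 and -0.61 in TIAR.

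Of the ATG8 family, MAP1LC3B rose in both lines and GABARAPL2 in TIAR. MAP1LC3B encodes LC3B, the protein most used to mark autophagosomes. Its brighter probe read 1.71 and 1.94 in GFP, 1.32 and 1.35 in HuR, 2.05 and 1.7 in TIA1, and 2.67 and 2.33 in TIAR. The TIAR arrays were the highest and the HuR arrays the lowest, with GFP and TIA1 overlapping between them. The rise against HuR was 1.16 ± 0.15 in TIAR, 2.24-fold (adjusted p = 0.012), and 0.54 ± 0.15 in TIA1 (adjusted p = 0.049), while the difference of TIA1 from GFP was 0.05. Without TIAR 1 the rise in TIAR was 0.99, and without HuR 1 or HuR 2 it did not pass (adjusted p = 0.084 and 0.09); the rise in TIA1 did not pass without HuR 1, HuR 2 or TIA1 1 (adjusted p = 0.19, 0.19 and 0.059). The other probe read 1.64 and 1.87 in GFP, 1.37 and 1.19 in HuR, 1.52 and 1.32 in TIA1, and 2.25 and 2.09 in TIAR, and rose in TIAR by 0.89 (adjusted p = 0.014) but not in TIA1, where it differed by 0.14 (adjusted p = 0.43). That probe also matches a transcript of MAP1LC3B2, a near-identical paralogue, so it cannot assign signal to either gene; both stretches, at chr16:87437440-87437499 and chr16:87436758-87436817 of hg19 on the plus strand, are shown for this reason.
MAP1LC3B brighter probe: aaagagtggcatttctcctgtttcaggttt
MAP1LC3B dimmer probe, shared with MAP1LC3B2: aaagggatgttaccaactgagatcgatcag

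GABARAPL2 read 1.54 and 1.94 in GFP, 1.86 and 1.89 in HuR, 2.08 and 2.23 in TIA1, and 2.46 and 2.4 in TIAR. It rose by 0.56 ± 0.09 in TIAR (adjusted p = 0.020), and in TIA1 the difference of 0.28 did not pass (adjusted p = 0.091). GABARAP differed by 0.28 and 0.24 and GABARAPL1 by -0.33 and -0.06, none past the test, and all 3 encode members of the second branch of the family, which act late in the closing and fusion of the autophagosome.

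The 3 receptors gave 1 rise in each line, of a different gene. OPTN, a receptor for ubiquitinated cargo such as mitochondria, read -1.37 and -0.43 in GFP, -0.4 and -0.55 in HuR, -0.01 and -0.29 in TIA1, and 0.22 and 0.03 in TIAR, and rose in TIAR by 0.60 ± 0.12 (adjusted p = 0.032), against 0.32 in TIA1 (adjusted p = 0.14). NBR1, a receptor related to SQSTM1, read 2.39 and 2.75 in GFP, 2.93 and 2.94 in HuR, 3.34 and 3.3 in TIA1, and 3.19 and 3.29 in TIAR, with a rise of 0.38 in TIA1 (adjusted p = 0.033) and a difference of 0.30 in TIAR (adjusted p = 0.084). Neither gene differed between TIAR and TIA1 past the test (adjusted p = 0.36 for OPTN and 0.70 for NBR1). SQSTM1, the receptor p62, read 3.05 and 3.22 in GFP, 3.54 and 3.52 in HuR, 3.51 and 3.35 in TIA1, and 3.85 and 3.89 in TIAR. The TIAR arrays were the highest and the GFP arrays the lowest, but the differences from HuR, -0.10 (95% interval -0.38 to 0.18) and 0.34 (0.09 to 0.59), did not pass.

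Of the 5 genes of the lysosome and its regulator, CTSD rose in both lines and LAMP1 in TIA1, CTSB fell in TIAR, and LAMP2 changed in opposite directions by probe in TIAR. CTSD, an aspartic protease of the lysosomal lumen, read 1.37 and 1.54 in GFP, 1.41 and 1.34 in HuR, 2.19 and 2.34 in TIA1, and 2.36 and 2.38 in TIAR. The TIA arrays lay 0.66 above the highest of the other 4, the largest such gap among genes that were higher. CTSD rose by 0.89 ± 0.10 in TIA1, 1.85-fold (adjusted p = 0.0066), and by 0.994 in TIAR, 1.99-fold (adjusted p = 0.0072), just under the 2-fold needed for a call. Without HuR 1 or HuR 2 the adjusted p lay between 0.055 and 0.077 in the 2 lines.

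LAMP1, an abundant glycoprotein of the lysosomal membrane, read 4.95 and 5.22 in GFP, 4.51 and 4.45 in HuR, 5.45 and 5.51 in TIA1, and 4.61 and 4.64 in TIAR. The TIA1 arrays were the highest, the TIAR and HuR arrays lay together at the bottom and GFP lay between. LAMP1 rose in TIA1 versus HuR by 0.998 ± 0.09, again just short of 2-fold (adjusted p = 0.0044), and this held with any 1 array left out (adjusted p from 0.011 to 0.049). In TIAR the difference was 0.14 (adjusted p = 0.32). CTSB, a cysteine protease of the lumen, read 1.09 and 1.11 in HuR, 1.19 and 1.14 in TIA1, and 0.68 and 0.66 in TIAR, and changed by -0.43 in TIAR (adjusted p = 0.034) and 0.06 in TIA1. The GFP arrays of CTSB, at 0.59 and 1.23, spanned that range. TFEB differed by 0.24 in TIA1 and 0.28 in TIAR and did not pass (adjusted p = 0.11 and 0.27 by limma). Its dimmer probe differed by 0.30 and -0.13 and did not pass either.

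**Figure D3:**
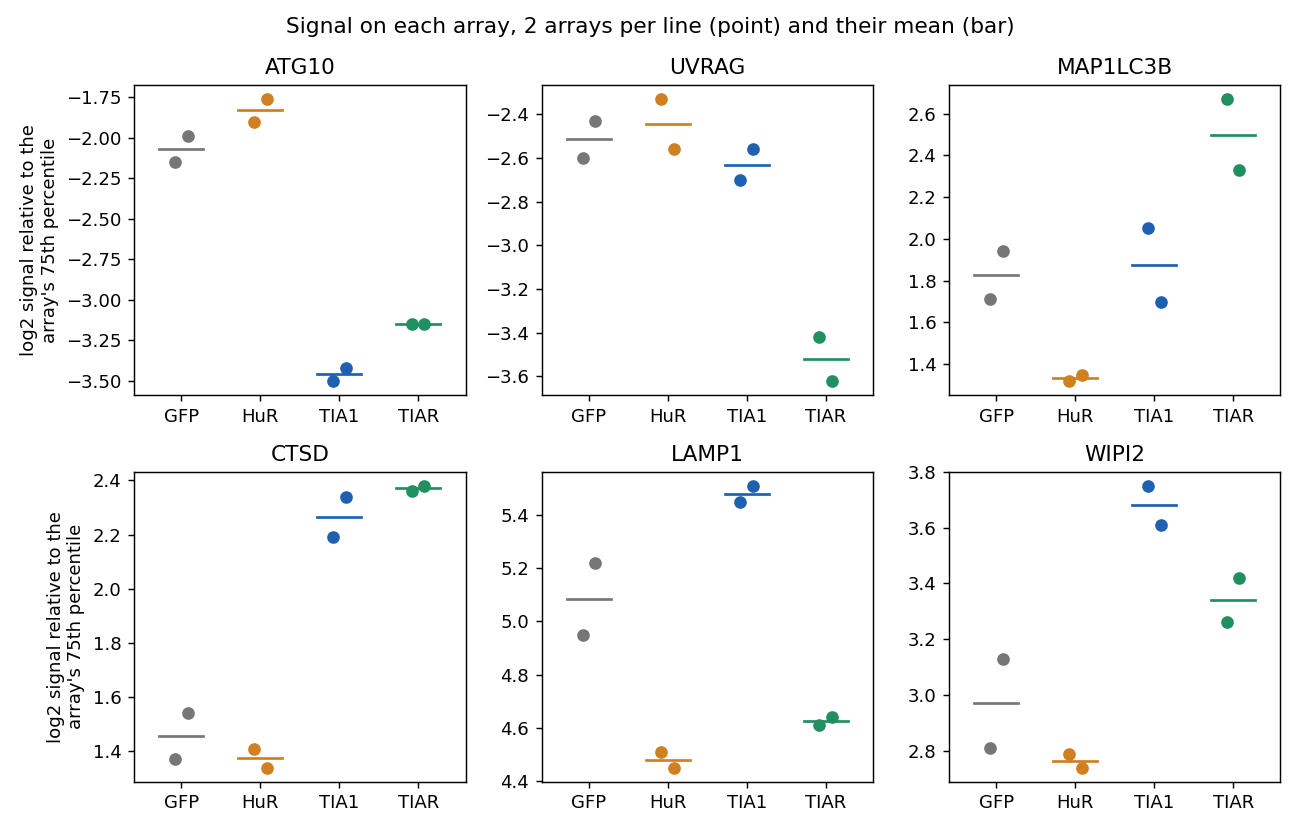
Each panel gives 1 gene, with the log2 signal of its brighter probe relative to the array's 75th percentile on the vertical axis, a point for each of the 2 arrays of a line and a bar at their mean. ATG10 is low in both TIA lines and UVRAG in TIAR alone, CTSD and WIPI2 are high in both, LAMP1 is high in TIA1 and MAP1LC3B highest in TIAR; each panel has its own axis, which does not start at 0.

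LAMP2, the other major glycoprotein of the lysosomal membrane, gave different answers by probe. The brightest probe, which the annotation gives for transcript variants A, B and C alike, read 1.73 and 2.02 in GFP, 1.77 and 1.8 in HuR, 1.74 and 1.89 in TIA1, and 2.34 and 2.43 in TIAR, a rise of 0.60 ± 0.10 in TIAR (adjusted p = 0.019). The probe of variants A and C, which starts at position 6458 of the transcript, read -0.56 and -0.32 in GFP, -0.65 and -0.67 in HuR, -0.85 and -0.83 in TIA1, and -1.27 and -1.32 in TIAR, and fell in TIAR by 0.64 on the log2 scale (adjusted p = 0.015). The probe of variant B differed by 0.09 (adjusted p = 0.62). In TIA1 none of the 3 passed, with differences from -0.18 to 0.03. The probes lie on the minus strand of hg19 at chrX:119575586-119575645, chrX:119560073-119560132 and chrX:119571194-119571253. Their first 30 bases are shown because the sign of the change in TIAR depended on which stretch was read, and no statement on LAMP2 as a whole follows from one of them.
LAMP2 probe of variants A, B and C: ataaatacctttgatctaagggttcagcct
LAMP2 probe of variants A and C: ggatgtatcgatttagagaaccaattaata
LAMP2 probe of variant B: tgcctcccattcactagaaaatgagaaaat

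Of the 35 genes 17 had several probes. For ATG5, ATG7 and ATG12 of the conjugation step the choice also mattered, as it did for ATG4C and ATG16L1 above. The dimmer probe of ATG7 read -0.64 and -0.68 in GFP, -0.59 and -0.62 in HuR, 0.34 and 0.42 in TIA1, and -0.18 and -0.14 in TIAR. It rose by 0.99 in TIA1 (adjusted p = 0.0045) and by 0.45 in TIAR (adjusted p = 0.032), where the brighter probe differed by -0.23 and 0.02; it starts at position 4674 of the transcript and the brighter one at 2116. The dimmer probe of ATG5 read -0.9 and -0.44 in GFP, -0.52 and -0.73 in HuR, -0.05 and -0.35 in TIA1, and -1.21 and -1.35 in TIAR, so that it was lowest in TIAR, with -0.66 versus HuR (adjusted p = 0.027), and at 0.43 in TIA1 (adjusted p = 0.088) had the sign opposite to the brighter probe. The dimmer probe of ATG12 read -4 and -4.02 in GFP, -3.47 and -3.09 in HuR, -3.16 and -2.92 in TIA1, and -4.01 and -4.08 in TIAR, and fell in TIAR versus HuR by 0.76 (adjusted p = 0.033), to the level of GFP, where the brighter probe gave -0.61 (adjusted p = 0.11).

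**Figure D4:**
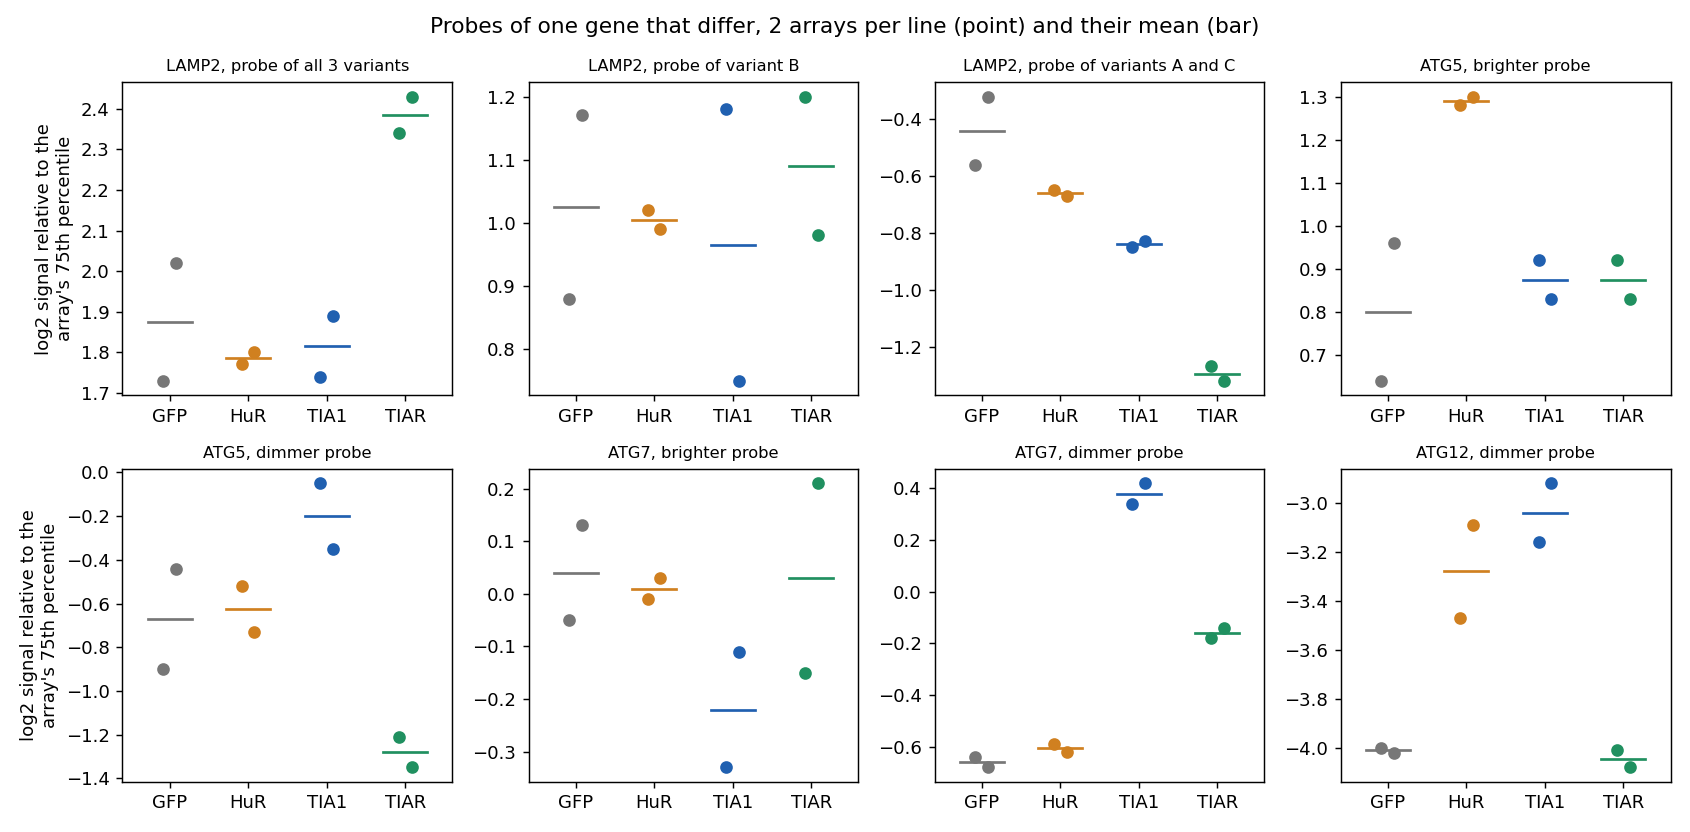
Each panel gives 1 probe, with its log2 signal relative to the array's 75th percentile, a point for each array and a bar for the mean of a line; axes differ and do not start at 0. LAMP2 is highest in TIAR on the probe of all 3 variants and lowest there on that of variants A and C, ATG7 is highest in TIA1 on its dimmer probe and lowest there on its brighter one, the dimmer ATG5 probe is lowest in TIAR, and the dimmer ATG12 probe is low in TIAR and GFP alike.

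Between the TIA lines themselves few members differed. In TIAR versus TIA1 limma found 0 of 34 higher at the adjusted p, against 1.84% of 20759 genes, and 2 lower, against 1.56%; none was called, against 1.33% higher and 1.02% lower among all genes. Unadjusted, 8 members had a p under 0.05, and the methods' paired t-test gave 6 before and 0 after adjustment. LAMP1 was lower in TIAR by 0.86 ± 0.11, 1.82-fold (adjusted p = 0.039), and UVRAG by 0.89 ± 0.13, 1.86-fold, at an adjusted p of 0.0495, just inside the threshold. Neither passed when any single array was left out, with adjusted p from 0.12 to 0.19. ATG10 differed by 0.31 (adjusted p = 0.19), CTSD by 0.10 (95% interval -0.21 to 0.42) and ULK1 by 0.09 (-0.22 to 0.40), and MAP1LC3B by 0.62 and 0.75 on its probes (adjusted p = 0.16 and 0.064).

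Against the GFP line no member passed, and no gene of the array did. Limma gave 0% of 20708 genes in TIA1 versus GFP, 0% of 21133 in TIAR versus GFP and 0% of 21343 in HuR versus GFP at the adjusted p. Unadjusted, 9, 10 and 3 members had a p under 0.05, and the methods' paired t-test gave 4, 2 and 4 before adjustment and 0 after it. The values of ATG10 were -1.39 in TIA1 (adjusted p = 0.10) and -1.08 in TIAR (adjusted p = 0.20), those of CTSD 0.81 and 0.92, those of ULK1 0.73 and 0.83, and ATG3 differed by -0.92 in TIA1. The 2 GFP arrays differed more than those of any other line. In a fit of the 7 arrays other than GFP 1 together, chosen after GFP 1 was seen to stand apart, 7 of 34 members rose and 3 fell in TIA1 versus GFP, beside 16.4% and 13.9% of all genes, 7 rose and 6 fell in TIAR versus GFP, beside 14.1% and 10.5%, and 0 rose and 4 fell in HuR versus GFP, beside 5.9% and 7.96%. With the GFP line left at 1 array there, the lone array was assumed to vary like the others. In that fit ATG10 changed by -1.47 and -1.16 (adjusted p = 0.0022 and 0.0049), ATG3 by -1.06 and -0.73, CTSD by 0.73 and 0.83, ULK1 by 0.55 and 0.65, ULK2 by 0.45 and 0.62, and WIPI1 by 0.62 and 0.71 in TIA1 and TIAR. The genes that fell in HuR were AMBRA1 by 0.82, LAMP1 by 0.74, PIK3C3 by 0.82 and BECN1 by 0.56 on the log2 scale. For AMBRA1 and BECN1 this held against GFP 2 alone. AMBRA1 read 1.5 on GFP 1 and 1.56 and 1.53 in HuR, and BECN1 read 2.01 on GFP 1 and 2.35 and 2.29 in HuR. In the fits of each pair of lines alone, 2, 1 and 7 members passed without GFP 1 and 13, 11 and 13 without GFP 2, in TIA1, TIAR and HuR versus GFP.

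As a description that uses the GFP arrays without a test, the 4 TIA1 and TIAR arrays all lay above the 4 GFP and HuR arrays for 12 of 34 members, or 35.3% against 14.7% of the 18565 genes well above background on every array, and all below for 3, or 8.82% against 9.73%. Those above were ULK1, ULK2, RB1CC1, WIPI1, WIPI2, ATG16L1, ATG4D, GABARAP, GABARAPL2, NBR1, OPTN and CTSD, with gaps between the groups of 0.07 for ATG4D to 0.66 for CTSD. Those below were ATG10, ATG3 and ATG4C, with gaps of 1.00, 0.38 and 0.12. Both sets have members in which the gap was smaller than the spread within the GFP line. Each gene was placed by its brightest probe, and for ULK2, WIPI2 and ATG4C another probe did not separate the groups. The second probe of WIPI2 read 0.41 and 0.4 in TIAR against 0.48 on GFP 1. A dimmer probe of ULK2 read -3.34 and -3.01 in TIA1 against -2.96 on GFP 1. The second probes of ATG16L1 and ATG10 did separate them. On another probe of ATG4C the means were -1.76 in GFP, -1.26 in HuR, -1.53 in TIA1 and -1.5 in TIAR, so the TIA lines lay between GFP and HuR.

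Promoters were searched for the motif that TFEB is known to bind, with CACGTG as its core and TCACGTGA as a longer form; each reads the same on both strands, and every TCACGTGA holds a CACGTG. Of the 35 members 29 matched the RefSeq promoter table of GRCh38.p14, with 38 windows of 300 bases, 250 before and 50 after the start. CACGTG was in 3 of the 38, or 7.89%, against 7.26% of 35116 windows of all genes, and TCACGTGA in 2, or 5.26% against 0.98%. The windows that held CACGTG were those of LAMP1, with 6 matches of which 2 were TCACGTGA, of ATG3, with 2 of which 1 was TCACGTGA, and of CTSD, with 1. LAMP1 and CTSD rose and ATG3 fell in TIA1 versus HuR. In TIAR versus HuR CTSD rose and ATG3 fell, while LAMP1 differed by 0.14 and did not pass (adjusted p = 0.32 by limma). A stretch of 30 bases around 1 match of each is shown to place the motif beside these genes, with the match in capitals. That of LAMP1 is at chr13:113297199-113297228 on the plus strand, with the match 29 bases upstream of the start; that of CTSD is at chr11:1763957-1763986 on the minus strand, 47 bases upstream; and that of ATG3 is at chr3:112561940-112561969 on the minus strand, with the match from base 5 of the transcript.
LAMP1 promoter: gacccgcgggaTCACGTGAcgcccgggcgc
CTSD promoter: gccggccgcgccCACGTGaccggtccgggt
ATG3 promoter: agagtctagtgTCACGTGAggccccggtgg

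Further genes of the pathway, from 4 lists, moved in both directions, and their counts stand beside 24.5% of all genes higher and 17% lower in TIA1 versus HuR and 18.9% and 11.9% in TIAR versus HuR. Of 47 other autophagy genes tested, 6 rose and 7 fell in TIA1 versus HuR and 8 rose and 4 fell in TIAR versus HuR, with medians of 0.02 and 0.09. Those called higher in TIA1 and in TIAR are given in that order. TP53INP1, a p53 target that binds LC3, rose by 2.23 and 1.99 (adjusted p = 0.0019 and 0.004), DRAM1, a lysosomal membrane protein also induced by p53, by 1.22 and 1.71, TP53INP2 by 1.08 and 1.47, and WDFY3, a scaffold for aggregate clearance, by 1.26 and 1.05. DRAM1 averaged -2.72 in GFP, -3.36 in HuR, -2.14 in TIA1 and -1.65 in TIAR, so HuR lay below GFP. Against GFP the largest rise among these other autophagy genes was 1.39 in TIA1 and 1.18 in TIAR, and none passed. The rises of TP53INP1 against HuR were thus larger than any against GFP. STX17, the SNARE for fusion with the lysosome, fell in TIA1 versus HuR by 1.04 (adjusted p = 0.0061 by limma).

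Of 50 lysosomal enzymes and membrane proteins tested, 9 rose and 16 fell in TIA1 versus HuR, beside 24.5% and 17% of all genes, and 12 rose and 10 fell in TIAR versus HuR, beside 18.9% and 11.9%, with medians of -0.04 and 0.04. CTSA, the protective protein of the lumen, rose by 1.08 and 1.09. It averaged 3.93 in GFP, 3.13 in HuR and 4.21 in each TIA line, so HuR lay further from GFP than the TIA lines did. CTSZ, a carboxypeptidase, and GUSB, the glucuronidase, rose in TIA1 versus HuR by 1.08 and 1.04, and LAMP3 in TIAR by 1.41. CTSZ averaged -1.17 in GFP, -3.78 in HuR, -2.7 in TIA1 and -2.95 in TIAR, so both TIA lines lay below GFP. GUSB in TIA1 differed from GFP by 0.99. GAA, the acid glucosidase, fell in TIA1 by 1.8 (adjusted p = 0.0047), CTSH, a cysteine protease, by 1.40, and ASAH1, an enzyme of ceramide breakdown, by 1.01. CTSH and LAMP3 were higher in TIAR than in TIA1 by 1.11 each (adjusted p = 0.028 and 0.036). Of 19 subunits of the vacuolar ATPase, the proton pump of the lysosome, 2 rose and 2 fell in each comparison. ATP6V1G2, a subunit best known from neurons, rose in TIA1 by 1.91 (adjusted p = 0.0019) and was lower in TIAR than in TIA1 by 1.44 (adjusted p = 0.024).

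Of 34 genes of the mTORC1 and AMPK pathways, which hold autophagy back and set it off, 5 rose and 8 fell in TIA1 versus HuR and 3 rose and 6 fell in TIAR versus HuR. LAMTOR2, part of the platform that holds mTORC1 at the lysosome, fell by 1.15 and 1.07 (adjusted p = 0.005 and 0.0079). NPRL3, of a complex that restrains mTORC1, fell in TIA1 by 1.27 and PRKAA2, a catalytic subunit of AMPK, by 1.13. FLCN, the folliculin, rose in TIAR versus HuR by 1.26 (adjusted p = 0.0096 by limma). It averaged 0.54 in GFP, -0.52 in HuR, -0.22 in TIA1 and 0.74 in TIAR, so HuR was the lowest and TIAR differed from GFP by 0.2.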

How the data were processed

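Total RNA of FT293 lines expressing GFP, HuR, TIA1 or TIAR, 2 replicates each, was hybridised by the authors to one-colour Agilent human 8x60K arrays. The deposited scanner files hold processed signal, an intensity that the feature extraction software background-subtracted and that was not scaled between arrays. The authors' series table holds deposited log2 values; its normalization is not given in the sources used here, and it served as an alternative.

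From the log2 intensities the 75th percentile of each array was taken off. Outlier spots, by the scanner's own marks, did not enter, and the remaining spots gave each probe a mean. A probe entered a comparison if either line had it well above background on both its arrays, and was tested with limma 3.58.1 in R 4.3.3 (lmFit and eBayes on 4 arrays), with Benjamini-Hochberg adjustment over all of them. Calls needed an adjusted p under 0.05 and a 2-fold change. Other software was data.table, version 1.17.8, pandas, version 2.3.3, and matplotlib, version 3.10.9.

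The members and lists were chosen with earlier results of these data known. Values per array are given for called members, for the 2 or 3 members of each step with the smallest adjusted p, and for MAP1LC3B and SQSTM1. Other probes of a gene are given where they differed in passing the adjusted p, but not always where only the sign differed. Of the further lists, at most 5 called genes per direction are named. No genome was used, so probes were not assigned to exons or untranslated regions. The number of arrays limits the precision. Some genes of the further lists are not reported here by name.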

Additional observations from a re-analysis of the deposited data

Results flagged for a closer look

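In all, 4 probes of members differed between the TIA lines themselves, by limma on the 4 TIA1 and TIAR arrays. LAMP1 was lower in TIAR, at -0.86 on the log2 scale (adjusted p = 0.039), and UVRAG at -0.89 (adjusted p = 0.0495). The dimmer probe of ATG12 was at -1 (adjusted p = 0.044) and that of ATG5 at -1.09 (adjusted p = 0.045), while the brighter probes of these genes, at -0.44 and 0.00, did not pass. Groups of 2 arrays are too small for a test of single outlying samples.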

How the results depend on the processing

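Counts of member genes past the adjusted p as reported were 15 in TIA1 versus HuR, 15 in TIAR versus HuR, 2 in TIAR versus TIA1 and 0 in each comparison with GFP; called were 1, 3, 0 and 0. With single arrays left out, the counts past the adjusted p ran from 2 to 12, from 0 to 11 and 0 throughout, and in TIA1, TIAR and HuR versus GFP from 0 to 13, 0 to 11 and 0 to 13. Those called ran from 1 to 2 in TIA1 versus HuR, 0 to 3 in TIAR versus HuR, 0 to 3 in TIA1 versus GFP and 0 to 4 in TIAR versus GFP. All 8 arrays in one fit gave 6, 5 and 0 past the adjusted p in the first 3 comparisons and 9, 8 and 1 in TIA1, TIAR and HuR versus GFP, with 1 and 2 called in TIA1 and TIAR versus GFP. The fit of 7 arrays without GFP 1, chosen after seeing the data, gave 10, 13 and 4 against GFP, with 2 and 2 called, and 4 in TIAR versus TIA1. Without a filter on dim probes 4, 2 and 0 passed, with 1 called in TIAR versus HuR. For TIAR versus TIA1, normexp, quantile normalization and the deposited series table left 1 each, and the series table gave 2 called in TIA1 versus HuR. The methods' paired t-test gave 0 after adjustment in the 3 comparisons, with 0 called in those with HuR; unadjusted it gave 6 in TIAR versus TIA1 and 4, 2 and 4 in TIA1, TIAR and HuR versus GFP, with 1 and 1 called in the first 2 of these. The causes were not tested.

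With the replicate number as a block, 9, 7 and 0 members passed in TIA1 versus HuR, TIAR versus HuR and TIAR versus TIA1. The numbers did not pair the arrays: deviations of same-numbered arrays correlated between -0.09 and 0.18 over 24954 probes. Taking the mean of a gene's probes, ATG5, TIA1 versus HuR, turned from -0.41 to 0.01, and ATG7, TIA1 versus HuR, from -0.23 to 0.38 (adjusted p = 0.042 by limma), since their probes disagreed. ATG10 and LAMP1 in TIA1 versus HuR stayed past the adjusted p in 14 of 15 alternatives, the most of any member. The fewest in that comparison were 4 for ATG4C, and ATG13 stayed in 5 and BECN1 in 6. In TIAR versus HuR the count ran from 4 for ATG16L1 to 12 for ATG10 and CTSD, with 6 for CTSB and 7 for BECN1. With 2 arrays a line, dim probes and changes well under 2-fold had the least support.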
